A study of Zea mays with 6 samples.

Results

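DNase I hypersensitive sites (DHSs) within 2 Mb of the ends of the 10 maize chromosomes were described end by end and by tissue. A DHS was taken as a member when its midpoint lay in the first or the last 2000000 bp of its chromosome, with the chromosome length set to the largest end coordinate in either tissue list. This rule selected 903 of 33746 DHSs, comprising 544 of the 18485 DHSs of V2-IST (2.94%) and 359 of the 15261 DHSs of husk (2.35%). The 20 windows together span 40 Mb, which is 1.90% of the 2104 Mb covered by the 10 chromosomes.

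The study mapped open chromatin by DNase-seq in the maize inbred line B73. V2-IST denotes the inner stem of V2-stage seedlings, represented by 2 libraries from 2 biological replicates, and husk denotes the inner leaves around the ear, sampled at silk emergence and represented by 3 libraries from 2 biological replicates, 1 of the libraries being a technical replicate. Naked DNA treated with DNase I was sequenced as the background for peak calling and yielded no list. The authors integrated the biological replicates into 1 list of positions per tissue, so values carry no SD, no test between tissues was possible, and whether a difference is larger than the variation between replicates cannot be read from them.

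DNase I cuts DNA most readily where nucleosomes have been displaced, for instance at active promoters and enhancers, and DHSs therefore mark positions at which regulatory proteins may reach the DNA. In maize, genes are denser along the outer parts of the chromosome arms than around the centromeres, where retrotransposons prevail. Terminal sequence also holds repeats such as the telomere and knob repeats.

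The first and the last windows of a chromosome were not measured from equivalent points. A start window was counted from base 1 of the chromosome, whereas a last window was counted from the last base of the outermost DHS, and the assembly may continue beyond it. The V2-IST list set the length of 9 chromosomes and the husk list that of chromosome 10. The outermost DHS of a last end thus lies at 0 by construction, and gaps to the end were read at start ends only. Coordinates are 1-based on the AGPv4 assembly, and the annotation and sequence of that assembly were not used here, so genes at these DHSs were not named and sequences are not shown.

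A DHS was called shared when at least 1 bp overlapped a DHS of the other list, and V2-IST-only or husk-only otherwise. Within 2 Mb of the ends, 287 V2-IST DHSs were shared and 257 were V2-IST-only, against 65.4% shared and 34.6% V2-IST-only in the whole V2-IST list. The shared DHSs made up 52.8% of the V2-IST members (95% Wilson interval 48.6 to 56.9%). Of the husk members, 283 were shared and 76 were husk-only, against 79.6% and 20.4% in the whole husk list. The shared share of husk was 78.8% (74.3 to 82.7%), an interval that holds the value of the whole list. After joining overlapping DHSs, the members formed 614 regions, of which 281 contained DHSs of both tissues, 257 were found in V2-IST alone and 76 in husk alone. Being called in 1 list only does not mean that the chromatin of the other tissue was closed, since a peak called in a single replicate is not in the integrated list.

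**Figure D1:**
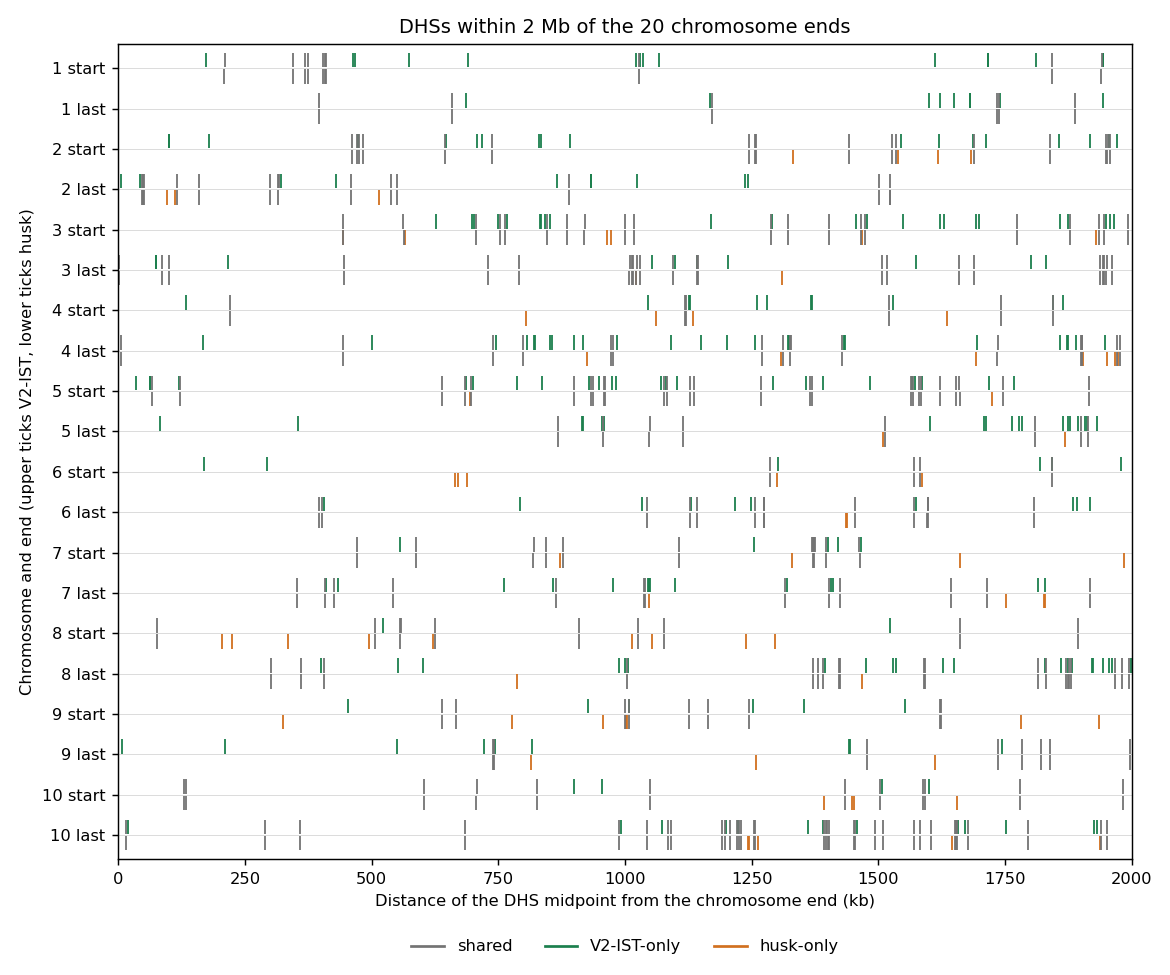
Position of every member at the 20 chromosome ends, with the distance of the DHS midpoint from the end in kb on the horizontal axis and 1 row per end on the vertical axis. In each row the upper ticks are the V2-IST DHSs and the lower ticks the husk DHSs, coloured grey for shared, green for V2-IST-only and orange for husk-only, and the 903 ticks thin out towards the ends on the left.

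The windows held more DHSs per Mb than the rest of the chromosomes in both tissues, but fewer than the adjacent stretch 2 to 4 Mb from the ends. In V2-IST the density was 13.6 DHSs per Mb at the ends, 19.8 in the adjacent stretch and 8.69 over all sequence farther than 2 Mb from an end. In husk the corresponding densities were 8.98, 14.9 and 7.22 DHSs per Mb. The density at the ends was thus 1.56 times that of the rest in V2-IST (95% interval from counting error 1.43 to 1.70) and 1.24 times in husk (1.12 to 1.38). Against the adjacent stretch, it was 0.688 times in V2-IST (0.615 to 0.768) and 0.602 times in husk (0.527 to 0.688). For husk the density was 0.861 times the rest within 1 Mb of the ends (125 DHSs). That value has no interval here, so a change of direction beyond counting error cannot be read from it. In terms of covered sequence, V2-IST DHSs occupied 364 kb of the windows (0.910%) and husk DHSs 201 kb (0.502%), compared with 0.593% and 0.456% of the rest.

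The classes contributed unequally to these densities. V2-IST-only DHSs reached 6.43 per Mb at the ends against 2.98 in the rest, 2.16 times as dense (1.90 to 2.44). Shared DHSs of V2-IST were 1.26 times as dense at the ends as in the rest (1.11 to 1.41), at 7.18 against 5.71 per Mb. The interval for the V2-IST-only class therefore lay wholly above that for the shared class. In the husk list, shared DHSs were 1.23 times (1.09 to 1.38) and husk-only DHSs 1.29 times (1.02 to 1.62) as dense at the ends, with widely overlapping intervals. Relative to the stretch 2 to 4 Mb from the ends, the density of V2-IST-only DHSs was 0.848 times (0.715 to 1.005) and that of shared V2-IST DHSs 0.588 times (0.507 to 0.682), so that both classes were sparser at the ends by value, and the interval of the V2-IST-only class included 1.

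Pooled over the 20 ends, density rose inward within the windows themselves. Divided into steps of 500 kb, the 20 ends held 86 V2-IST DHSs in the outermost step, followed by 110, 159 and 189 in the next 3 steps. The husk list held 60, 65, 113 and 121 DHSs in the same steps. Both lists were thus about 2 times as dense in the innermost step as in the outermost (18.9 against 8.6 DHSs per Mb for V2-IST and 12.1 against 6 for husk). V2-IST-only DHSs numbered 34, 60, 69 and 94 from the outermost step inward, corresponding to 39.5%, 54.5%, 43.4% and 49.7% of the V2-IST DHSs, with no steady trend. Husk-only DHSs numbered 9, 16, 26 and 25. The sides differed over the first steps. From the outermost step to the next, numbers rose at the starts, from 34 to 62 in V2-IST and from 25 to 43 in husk. At the last ends they fell, from 52 to 48 and from 35 to 22. The outermost step of a last end includes the DHS that set the chromosome length.

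Continuing inward in steps of 1 Mb, the V2-IST density was 9.8 per Mb in the outermost Mb, 17.4 in the next and 23.5 at 4 to 5 Mb, the highest of the 10 steps examined, before it declined to 15.5 at 9 to 10 Mb. The husk density followed the same course, from 6.25 to 18.8 per Mb at 4 to 5 Mb and 12.3 at 9 to 10 Mb. Sharing changed in the V2-IST list, where 52.0% of the DHSs in the outermost Mb and 53.2% in the next were shared, compared with 60.6% at 2 to 3 Mb, 62.9% at 3 to 4 Mb and 66.6% at 4 to 5 Mb. The V2-IST to husk ratio fell over the same steps from 1.57 to 1.49, 1.39, 1.27 and 1.25.

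**Figure D2:**
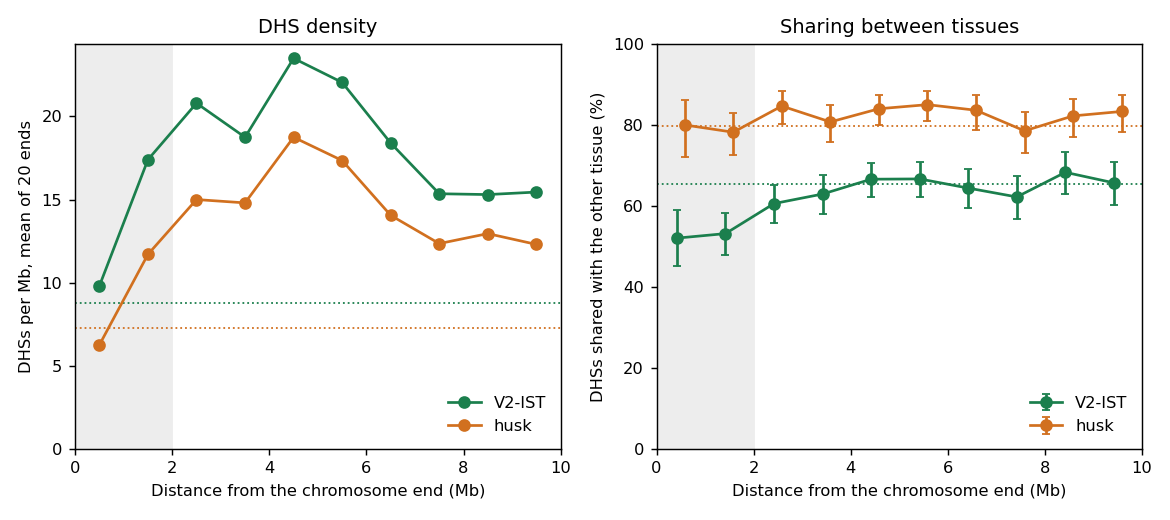
DHSs per Mb (left) and the percentage of DHSs shared with the other tissue (right) against distance from the chromosome end in Mb, pooled over the 20 ends in steps of 1 Mb for V2-IST (green) and husk (orange); bars are 95% Wilson intervals, dotted lines the values of the whole lists, and the grey band the windows described here. Density climbs to 23.5 and 18.8 per Mb at 4 to 5 Mb, and V2-IST sharing lies at 52.0% and 53.2% inside the band.

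The balance between the tissues accordingly leaned towards V2-IST at the ends. V2-IST DHSs numbered 1.52 times the husk DHSs (1.32 to 1.74) within 2 Mb, 1.33 times (1.19 to 1.48) at 2 to 4 Mb and 1.20 times (1.18 to 1.23) in the rest. Counted as covered base pairs, the ratios were 1.81, 1.504 and 1.30. The interval of the ratio at the ends lay above that of the rest, while it overlapped that of the adjacent stretch. These intervals take the lists as independent counts, although shared regions were counted in both. Read depth of the tissues was not analysed here.

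The 20 ends differed widely in the number of DHSs. V2-IST members ranged from 10 to 50 per end with a median of 25, and husk members from 7 to 40 with a median of 17. The last end of chromosome 10 held the most DHSs, with 47 in V2-IST and 40 in husk, 87 in all. The start of chromosome 5 held the most V2-IST DHSs, 50, beside 28 in husk. At the other extreme, the start of chromosome 6 held 19 DHSs, 10 in V2-IST and 9 in husk, and the last end of chromosome 1 held 16 and 7. The ends of 1 chromosome could thus lie far apart in number, as the start of chromosome 10 held 16 DHSs in each list.

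V2-IST DHSs outnumbered husk DHSs at 17 of the 20 ends. The numbers were equal at the start of chromosome 10, whereas husk exceeded V2-IST at the starts of chromosome 9 (16 against 15) and chromosome 8 (18 against 12). The highest ratio was found at the last end of chromosome 5, where 28 V2-IST DHSs faced 10 husk DHSs, a ratio of 2.80 (1.32 to 6.46). It was followed by the start of chromosome 1, with 25 against 10, a ratio of 2.50 (1.16 to 5.83). The lowest ratio, 0.667 at the start of chromosome 8, had an interval from 0.293 to 1.46. With so few DHSs per end, the interval lay wholly above 1 at 5 ends, and at 19 ends it held the ratio of the rest, 1.20, the exception being the last end of chromosome 5.

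**Figure D3:**
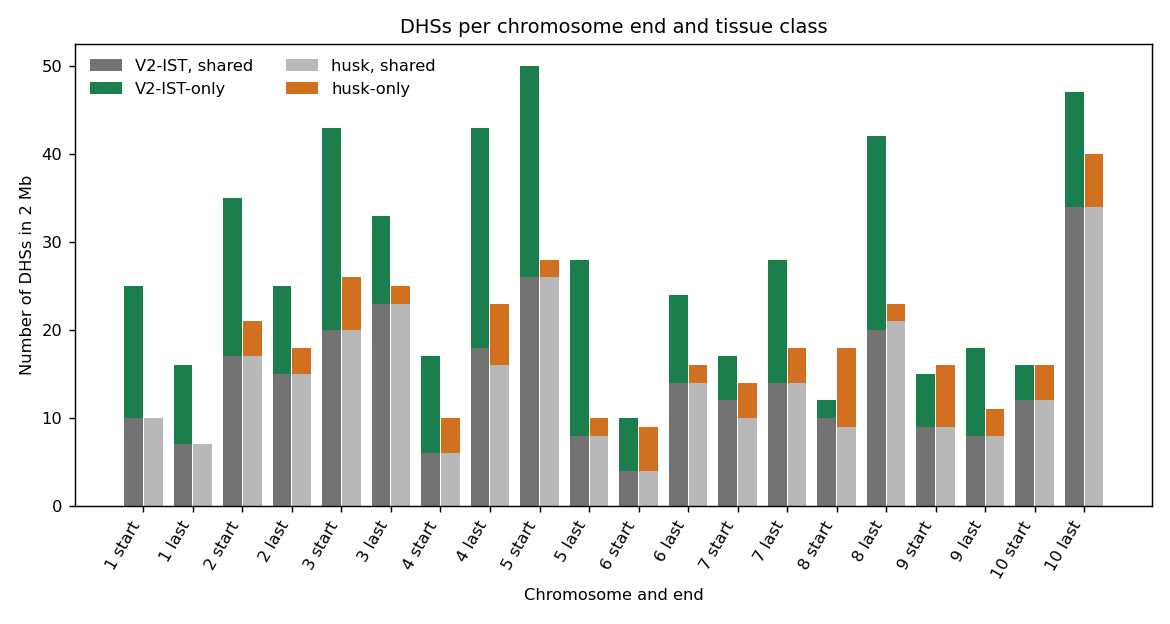
Number of DHSs in the 2 Mb window (vertical axis) at each chromosome end (horizontal axis), with a V2-IST bar at the left and a husk bar at the right of each pair, split into shared DHSs (grey) and tissue-only DHSs (green V2-IST-only, orange husk-only). The last end of chromosome 10 has 47 and 40 DHSs, the 2 ends of chromosome 1 have no husk-only DHSs, and the start of chromosome 8 has 9.

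The starts and the last ends were similar in V2-IST sharing and differed in husk sharing. In V2-IST, 126 of 240 DHSs at the starts (52.5%) and 161 of 304 at the last ends (53.0%) were shared. In husk, 123 of 168 DHSs at the starts were shared (73.2%, 66.1 to 79.3%) compared with 160 of 191 at the last ends (83.8%, 77.9 to 88.3%). Husk-only DHSs were therefore more numerous at the starts, 45 against 31, although V2-IST-only DHSs were fewer, 114 against 143. The husk intervals overlapped, and the ratios of V2-IST to husk were 1.43 (1.17 to 1.75) at the starts and 1.59 (1.32 to 1.92) at the last ends.

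Husk-only DHSs were unevenly spread among the ends, ranging from 0 to 9 with a median of 4. Both ends of chromosome 1 lacked them, so that all 17 husk DHSs there (10 at the start and 7 at the last end) overlapped a V2-IST DHS. By the rule of 3 counts over the number of DHSs, a count of 0 among 17 allows a share of up to 17.6%. The whole list had 20.4% husk-only DHSs, and the chromosome is singled out here for its count of 0. Wilson intervals of husk sharing were 72.2 to 100% at the start and 64.6 to 100% at the last end. Both held the share of the whole list. By contrast, the start of chromosome 8 had 9 husk-only DHSs of 18 and 2 V2-IST-only DHSs of 12, and the start of chromosome 9 had 7 husk-only DHSs of 16 and 6 V2-IST-only DHSs of 15. These were the ends at which husk-only DHSs outnumbered V2-IST-only DHSs. Husk sharing was lowest at the start of chromosome 6, where 4 of 9 DHSs were shared (44.4%).

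V2-IST-only DHSs were present at every end, from 2 at the start of chromosome 8 to 25 at the last end of chromosome 4, with a median of 10.5. At 10 of the 20 ends fewer than 50% of the V2-IST DHSs were shared. The lowest share was 28.6% at the last end of chromosome 5, where 20 of 28 DHSs were V2-IST-only. The highest was 83.3% at the start of chromosome 8, with 10 of 12 shared. The last end of chromosome 10, the richest of all, had 34 shared DHSs among its 47 V2-IST DHSs and 34 among its 40 husk DHSs, or 72.3% and 85%.

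Comparison of both ends of a chromosome with the rest of the same chromosome gave a similar picture on most chromosomes. V2-IST sharing was lower at the ends on 9 of 10 chromosomes, the exception being chromosome 10 with 73.02% at the ends. The V2-IST to husk ratio was higher at the ends on the same 9 chromosomes, from 1.22 on chromosome 9 to 2.41 on chromosome 1, while chromosome 10 had 1.13 at the ends and 1.17 in the rest. The 2 measures are not independent, because the lists had nearly equal numbers of shared members (287 and 283). The ratio thus largely restates the difference in sharing. V2-IST density was higher at the ends on 9 chromosomes, all except chromosome 9, and husk density on 7, all except chromosomes 1, 6 and 9. Husk sharing showed no common direction, being higher at the ends on 5 chromosomes and lower on 5. Set against the adjacent stretch of the same chromosome, V2-IST sharing was lower at the ends on 8 of 10 chromosomes, all except chromosomes 8 and 10. The V2-IST to husk ratio was higher at the ends than in that stretch on 7 chromosomes and lower on chromosomes 8, 9 and 10.

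**Figure D4:**
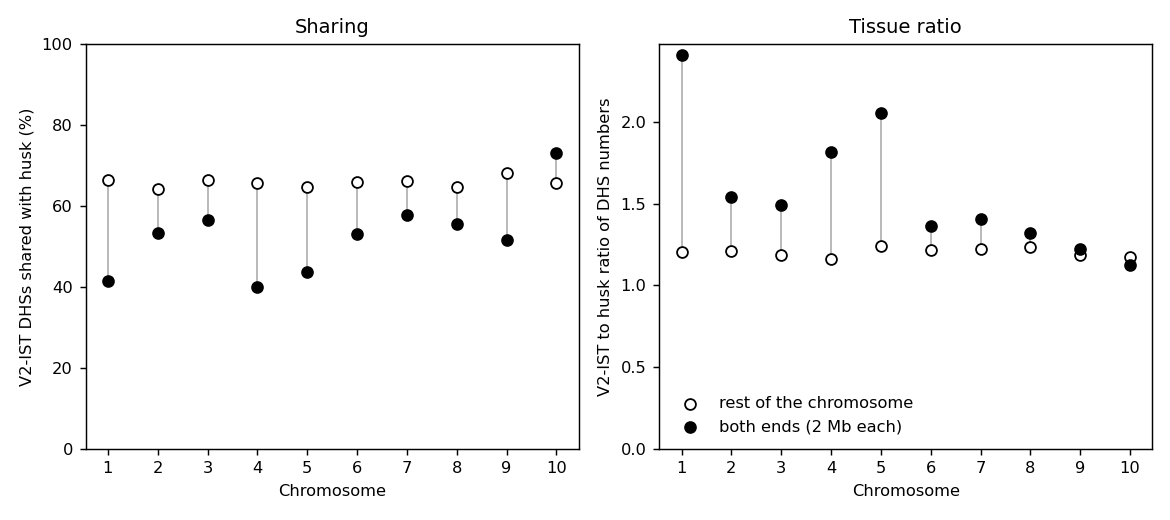
Percentage of V2-IST DHSs shared with husk (left) and ratio of V2-IST to husk DHS numbers (right) for each of the 10 chromosomes, with filled circles for both 2 Mb ends together and open circles for the rest of the chromosome. On 9 chromosomes the filled circle lies lower at the left and higher at the right, and chromosome 10 (73.02% and 1.13) shows the reverse. Both panels draw on the same DHS numbers and are not independent.

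DHSs at the ends had a median width close to that of the rest in V2-IST and below it in husk, and both medians lay below those of the stretch 2 to 4 Mb from the ends. V2-IST members measured 149 to 5488 bp and had a median of 479.5 bp (95% order-statistic interval 440 to 514 bp), beside 484 bp in the rest. Husk members measured 138 to 5482 bp and had a median of 417 bp (392 to 439 bp), below the 453 bp of the rest (447 to 459 bp). In the stretch 2 to 4 Mb from the ends the medians were 542 bp for V2-IST (510 to 582 bp) and 480 bp for husk (442 to 520 bp), and the V2-IST median was lower at the ends than in this stretch on 9 of 10 chromosomes, all except chromosome 7. Husk DHSs of 1000 bp or more made up 12.5% of the members (45 DHSs, 9.50 to 16.36%), an interval that just held the 16.27% of the rest. In V2-IST they made up 18.8% of the members (102 DHSs, 15.7 to 22.2%) and 19.5% of the rest. At 15 of the 20 ends the V2-IST median exceeded the husk median, with extremes of 921 bp at the start of chromosome 7 and 290 bp at the start of chromosome 9.

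Elsewhere in the genome, shared DHSs were wider than tissue-only DHSs, and this gap was small at the ends. At the ends, shared V2-IST DHSs had a median of 500 bp (451 to 545 bp) and V2-IST-only DHSs one of 464 bp (390 to 511 bp), against 537 and 393 bp in the rest. Shared husk DHSs had a median of 416 bp (386 to 440 bp) and husk-only DHSs one of 423 bp (353 to 528 bp), against 480 and 379.5 bp in the rest. The intervals of the classes overlapped at the ends in both lists. V2-IST-only DHSs 2 to 4 Mb from the ends were of similar width, their median being 458 bp (397 to 518 bp).

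**Figure D5:**
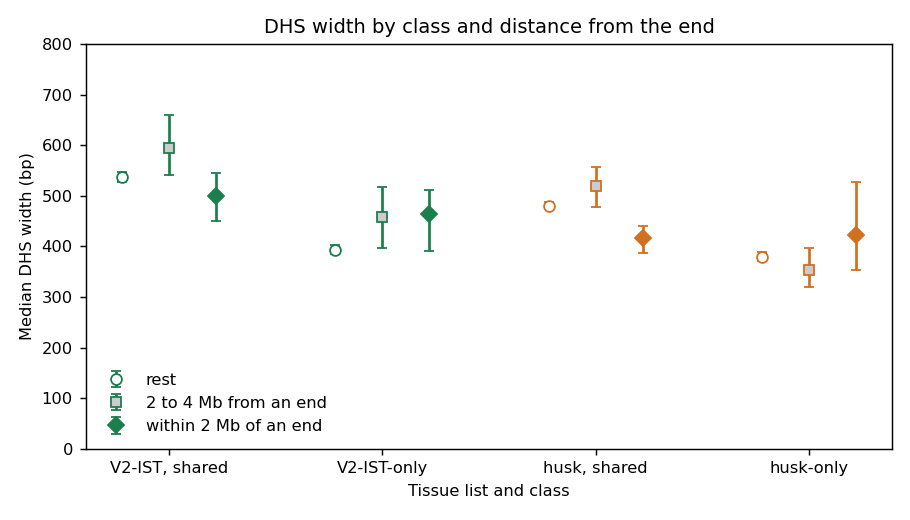
Median DHS width in bp (vertical axis) by tissue list and class (horizontal axis) for the rest of the chromosomes (open circles), the stretch 2 to 4 Mb from the ends (squares) and the windows within 2 Mb of the ends (diamonds); bars are 95% order-statistic intervals. At the ends the medians of shared and tissue-only DHSs are 500 and 464 bp in V2-IST and 416 and 423 bp in husk, and the rest includes the stretch shown by squares.

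The lower sharing of V2-IST DHSs at the ends was present in each width class. Among DHSs under 300 bp, 36 of 105 members were shared (34.3%), against 48.2% of the rest. Shares were 58.8% against 66.8% at 300 to 600 bp and 54.5% against 71.0% at 600 to 1200 bp. The widest class differed most, with 43 of 76 members of 1200 bp or more shared (56.6%, 45.4 to 67.1%) against 79.5% of the rest. Sharing in the rest thus rose with width, whereas at the ends it did not rise beyond 300 to 600 bp. Husk sharing did not rise with width at the ends either, with 80.4%, 78.0%, 78.1% and 80.0% shared from the narrowest to the widest class. In the rest it rose, from 72.0% to 77.9%, 84.2% and 92.5%. Unlike in V2-IST, husk sharing was lower at the ends than in the rest only from 600 bp upward. The interval of the widest husk class (62.7 to 90.5%) lay below the share of the rest.

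Where a DHS of each list overlapped a single DHS of the other, the widths of the pair were compared. Of 273 such pairs at the ends, V2-IST had the wider DHS in 193 (70.7%, 65.0 to 75.8%), the husk DHS in 79 and the widths were equal in 1. In the rest, V2-IST was wider in 61.2% of 11311 pairs (60.3 to 62.1%). The median difference was 65 bp at the ends (42 to 90 bp) and 27 bp in the rest (24 to 30 bp), and the distances between the paired boundaries summed to a median of 147 bp (125 to 159 bp) at the ends, compared with 125 bp (121 to 129 bp). Sharing by overlap thus included pairs of rather unlike extent.

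DHSs with a close neighbour made up a smaller share of the husk members than of the husk DHSs in the rest. In the husk list, 24 members (6.69%, 4.53 to 9.75%) had another husk DHS within 1 kb, against 12.8% of the DHSs in the rest. In V2-IST, 75 members (13.8%, 11.1 to 16.9%) had such a neighbour, close to the 14.4% of the rest. Over 5 kb the husk share was 37.6% at the ends and in the rest alike, so the shares differed at 1 kb and not at 5 kb. The median gap to the nearest DHS of the same list was 5779 bp for V2-IST members, against 7514 bp in the rest, and 12582 bp for husk members, against 11473.5 bp.

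The distance from tissue-only DHSs at the ends to the nearest DHS of the other list was of the order found in the rest. Its median was 17526 bp for V2-IST-only and 12404 bp for husk-only members, compared with 15038 and 14162.5 bp in the rest. In the stretch 2 to 4 Mb from the ends the medians were shorter, at 7262 and 7182 bp. Within 1 kb of a DHS of the other list lay 16 V2-IST-only members (6.23%, 3.87 to 9.87%, against 8.62% of the rest) and 5 husk-only members (6.58%, 2.84 to 14.5%, against 9.37%). Within 5 kb lay 82 V2-IST-only members (31.9%, 26.5 to 37.8%, against 32.6% of the rest) and 32 husk-only members (42.1%, 31.6 to 53.3%, against 33.9%). All 4 intervals at the ends held the share of the rest. In the stretch 2 to 4 Mb from the ends, 40.3% of V2-IST-only and 43.7% of husk-only DHSs lay within 5 kb.

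Individual DHSs showed how similar or unlike the lists could be. The widest member was shared and nearly identical in both tissues, at chr1:372323-377810 (5488 bp) in V2-IST and chr1:372325-377806 (5482 bp) in husk. The DHS at chr1:342963-345821 in V2-IST (2859 bp) likewise matched one of 2862 bp in husk. At chr2:1947651-1950989 a V2-IST DHS of 3339 bp overlapped a husk DHS of 3634 bp at chr2:1946995-1950628. A contrasting pair was found on chromosome 3, where the V2-IST DHS at chr3:751836-755309 (3474 bp) overlapped a husk DHS of 596 bp at chr3:753673-754268.

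The widest V2-IST-only member measured 2506 bp at chr3:1873666-1876171, with the nearest husk DHS 1493 bp away. The next was chr5:221977321-221979603 (2283 bp), which lay 88160 bp from any husk DHS and closed a run of 6 consecutive V2-IST-only DHSs over 183 kb at the last end of chromosome 5. The third, chr4:1365417-1367423 (2007 bp), lay 153725 bp from a husk DHS. Wide tissue-only DHSs could therefore be isolated from calls in the other tissue. Of the husk-only members, the widest were chr10:149586159-149588023 (1865 bp), chr6:664382-666177 (1796 bp) and chr2:1682282-1683907 (1626 bp). Their distances to the nearest V2-IST DHS were 4039, 370731 and 1351 bp, respectively.

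DHSs of 1 class also followed one another in runs, with no DHS of another class between them. The longest runs held 7 V2-IST-only DHSs, at the start of chromosome 1 between bases 1029531 and 1811429 (782 kb) and at the last end of chromosome 4 between bases 245864643 and 245974634 (110 kb). Runs of 6 included those at the start of chromosome 3, at the last end of chromosome 8 (bases 179084356 to 179162398) and the run on chromosome 5 named above. The longest husk-only run held 4 DHSs at the start of chromosome 8, between bases 204216 and 494656 (290 kb), and contributed to the excess of husk-only DHSs at that end. At the start of chromosome 6, 3 consecutive husk-only DHSs lay within 24.1 kb, beginning with chr6:664382-666177, which was also the outermost husk DHS of that end.

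The densest groups were small. Joining DHSs of either list less than 2 kb apart, the largest group comprised 7 DHSs (3 in V2-IST and 4 in husk, 3 of them unshared) over 8367 bp at chr9:1000479-1008845. Groups of 6, with 3 DHSs from each list, were found at chr8:179164936-179171928, chr10:149446592-149452428 and chr4:244876739-244882052. A further group of 6 at chr7:1369793-1374380 held 4 V2-IST and 2 husk DHSs. All 6 DHSs were shared in the groups on chromosomes 10 and 7. On the scale of 500 kb, the fullest of the 80 steps lay 1000 to 1500 kb from the last end of chromosome 10 and held 24 V2-IST and 21 husk DHSs. The step 1500 to 2000 kb from the last end of chromosome 8 held 24 V2-IST DHSs, of which 14 were V2-IST-only, and 11 husk DHSs.

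Long stretches without DHSs occurred at every end. The longest stretch inside a window ranged from 276 kb at the last end of chromosome 4 to 597 kb at the start of chromosome 6, with a median of 442 kb. Each of the 80 steps of 500 kb nevertheless contained a DHS of at least 1 list, while 3 contained none of V2-IST and 6 none of husk. For the outermost step of each last end this holds by construction, because the outermost DHS set the chromosome length. The emptiest steps held a single DHS, husk-only 500 to 1000 kb from the start of chromosome 4 and V2-IST-only 500 to 1000 kb from the last end of chromosome 6. Mappability of these stretches was not analysed here.

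The distance of the first DHS from base 1 varied among the start ends. The V2-IST DHS nearest to a start was chr5:35414-35937, a V2-IST-only DHS of 524 bp, and that of husk was chr5:65948-66103, of 156 bp. Farthest from base 1 were the shared V2-IST DHS at chr7:470987-471907 (921 bp) and the husk-only DHS at chr6:664382-666177. Husk DHSs could also be missing from the outer part of a window that held V2-IST DHSs, as at the last end of chromosome 5. There the outermost husk DHS, chr5:222712092-222712425, lay 869 kb inward of the outermost V2-IST DHS. That V2-IST DHS set the chromosome length, so its own place at the end was fixed by construction. The outermost 500 kb of this end held 3 V2-IST DHSs, this DHS included, and 0 husk DHSs.

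The limit of 2 Mb cut through no shared pair, as 0 pairs had 1 DHS inside and 1 outside. The V2-IST members nearest to it were chr8:179046977-179047294 (318 bp) and chr9:157564358-157564799 (442 bp), and the nearest V2-IST DHSs beyond it were chr8:179043458-179043748 (291 bp) and chr7:180146382-180146573 (192 bp). In husk, chr8:179050259-179050824 (566 bp) and chr9:157564356-157564795 (440 bp) lay just inside and chr8:179043506-179043709 (204 bp) and chr7:180146399-180146572 (174 bp) just outside.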

How the data were processed

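DNase-seq reads were, per the methods of the study, aligned by the authors with BWA to the AGPv4 assembly, reads of low mapping quality were removed, and peaks were called with MACS2 in each biological replicate against the naked DNA library. Technical libraries were pooled first, and peaks overlapping to a large extent between biological replicates were kept. The deposited lists hold 3 columns (chromosome, start and end) and no score, read count or replicate column, so replicate spread could not be included. Read depth of the libraries, which the study tabulates, was not used here. The labels name B73 RefGen_v3, and the build was taken from the methods.

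Members were all DHSs with a midpoint in the 2 Mb windows. Sharing required 1 bp of overlap with any DHS of the other list. The upper limit for a count of 0 is 3 counts over the number of DHSs. Otherwise shares carry Wilson intervals (95%), ratios exact binomial intervals and medians order-statistic intervals. They describe counting error only and take each DHS as independent, although neighbours are not. Intervals of V2-IST to husk ratios, also those of single ends, take the lists as independent, although shared regions enter both. Differences from the rest are descriptions without a test. The rest is all sequence farther than 2 Mb from an end and includes the stretch 2 to 4 Mb away. DHSs were named by rule: the 3 widest per class, the outermost, the 3 largest groups and those tied with them in number, and the longest runs. The fullest and emptiest steps, the ends with extreme values and the DHSs nearest the limit were also named by rule. The runs and the second-ranked items were chosen after their values were seen. The members, classes and lists were chosen with earlier results of these data known. Alternatives changed the window, the overlap rule, the minimum width and the unit of counting. Others measured both ends from the outermost DHS or required the whole DHS to lie inside the window. Code was tested on simulated lists. Analyses ran in Python 3.11.15 with pandas 2.3.3, numpy 2.4.6, matplotlib 3.10.9 and scipy 1.17.1.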

Additional observations from a re-analysis of the deposited data

How the results depend on the processing

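Across 9 results (number of members, density relative to the rest, shared share and median width for each list, and the ratio of V2-IST to husk), 142 alternative values were computed. Of these, 122 stayed within the counting interval of the reported value or, for numbers, within 1.5 times of it. Most of the 142 values left out 1 chromosome, which keeps most members, and all of those stayed. The 19 values that moved and the 1 that crossed 1 came from the other alternatives. The 122 is therefore no measure of stability. Windows of 1 Mb held 196 V2-IST and 125 husk DHSs, and those of 5 Mb held 1805 and 1330. Relative density was 1.12 in V2-IST at 1 Mb and 2.17 at 5 Mb. In husk it was 0.861 at 1 Mb (without an interval), 1.91 at 5 Mb, and 1.10 by covered base pairs. V2-IST sharing was 60.3% at 5 Mb. It was 46.9% when DHSs under 300 bp were removed from both lists, which also removed narrow husk partners of wider V2-IST DHSs. It was 41.4% and 29.96% when 50% and 70% of both DHSs had to overlap. Under these last 3 rules the rest gave 61.4%, 54.2% and 41.7%. Husk sharing was 62.7% and 45.4% under the 50% and 70% rules, where the rest gave 65.3% and 50.3%. Medians of width reached 515 bp (V2-IST) and 462 bp (husk) at 5 Mb, and 554 and 504 bp with a minimum of 300 bp. The ratio by covered base pairs was 1.81. With the starts also measured from the outermost DHS, the windows held 583 V2-IST and 391 husk DHSs. Relative density was then 1.68 and 1.36, V2-IST sharing 53.3% and the ratio 1.49. Requiring the whole DHS inside the window left the numbers at 544 and 359. Leaving out each chromosome in turn (planned for chromosome 3, which had the most members, and chosen after seeing the data for the other 9) left all 9 results within their intervals or, for numbers, within 1.5 times, with V2-IST sharing at 50.1 to 54.3% and the ratio at 1.45 to 1.59. The cause of these shifts was not tested, apart from the size of the window and the stricter rules themselves.

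No paired analysis was possible because the replicates of a tissue had been merged into 1 list, so no replicate was left out either. Genes, sequence motifs and base composition at the ends were not analysed here, because a genome of the build used was not at hand. Read depth was not used here, and a DHS missing from a list cannot be told apart from one below the limit of detection.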
